A study of Rattus norvegicus with 3 samples.

Results

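Non-mitotic Eomes cells of the embryonic rat cerebral cortex are described here: cells with transcripts of Eomes, the T-box factor of intermediate progenitors, and no transcript of 3 genes of dividing cells. A barcode was a member when it held at least 3 UMIs (unique molecular identifiers, each counting 1 captured transcript) of Eomes, under 5 UMIs of Reln, no UMI of Top2a, Mki67 or Cenpf, and at most 4 UMIs of Neurod2 and Neurod6 together. Before that, barcodes were kept where 1000 or more genes were detected and no more than 10% of UMIs were mitochondrial. By this rule 523 of 15327 kept cells were members: 140 of 4444 in the library labelled E14, 121 of 5193 in that labelled E16 and 262 of 5690 in that labelled E18.

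The study profiled dissociated cortical cells of wild-type rat embryos (Rattus norvegicus, no treatment or transgene named) by droplet-based 3′ single-cell RNA sequencing, with 1 library for each of the labelled embryonic days 14, 16 and 18. How many embryos or litters went into a library is not given in the sources used here. Values are given below in the order E14, E16, E18, called label order. With 1 library per label no difference between libraries has a replicate check, no p-value is given, and every interval is a 95% interval for counting error only. Early and late cortical progenitor genes follow another order than the labelled days, with values given further on, so that directions are between libraries as labelled and not between known ages.

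In the developing cortex, radial glia divide along the ventricle and give rise to intermediate progenitors, which switch on Eomes, move to the subventricular zone and divide to yield excitatory neurons. Proneural factors such as Neurog2 drive this step, Notch signalling between neighbouring cells holds it back, and Neurod1, Neurod2 and Neurod6 follow as the daughter cells become neurons. An Eomes cell without mitotic transcripts can therefore be a progenitor in G1 or early S phase, a progenitor that has left the cycle, or a young neuron that still carries Eomes transcripts.

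Proneural factors bind E-boxes, short elements of the form CANNTG, where N is any base. The windows of 250 bases before the annotated start of 9 genes (the 6 markers named further on, Hes6, Dll1 and Insm1) were searched for it on both strands (the motif reads the same on either), and 7 of the 9 symbols were matched in the RefSeq promoter table of the build GRCr8. An E-box was present in 3 of those 7, and in 65.5% of all 33469 windows of that length, so that holding a match does not set these genes apart. The 3 are shown as the windows that hold a match, of a growth arrest factor, a Hes family factor and a Notch ligand. Their genes were higher in these cells than in radial glia and in more advanced Eomes cells of every library, and so were Neurog2, Neurog1 and Btg2, whose windows hold none. Each runs 5′ to 3′ on the gene's strand, ends just before the start, and has its E-boxes in capitals.
Gadd45g, chr17:13530352-13530601, minus strand: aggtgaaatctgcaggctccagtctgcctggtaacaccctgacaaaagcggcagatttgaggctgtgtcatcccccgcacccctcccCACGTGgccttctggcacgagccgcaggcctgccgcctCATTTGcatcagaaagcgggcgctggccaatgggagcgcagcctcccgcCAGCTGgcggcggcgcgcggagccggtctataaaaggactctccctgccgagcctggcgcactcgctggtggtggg
Hes6, chr9:99451097-99451346, minus strand: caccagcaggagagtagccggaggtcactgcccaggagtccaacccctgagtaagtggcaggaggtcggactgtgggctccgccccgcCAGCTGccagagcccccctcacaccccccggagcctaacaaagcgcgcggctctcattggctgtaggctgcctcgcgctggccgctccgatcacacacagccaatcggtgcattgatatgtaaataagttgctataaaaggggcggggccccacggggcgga
Dll1, chr1:64993275-64993524, minus strand: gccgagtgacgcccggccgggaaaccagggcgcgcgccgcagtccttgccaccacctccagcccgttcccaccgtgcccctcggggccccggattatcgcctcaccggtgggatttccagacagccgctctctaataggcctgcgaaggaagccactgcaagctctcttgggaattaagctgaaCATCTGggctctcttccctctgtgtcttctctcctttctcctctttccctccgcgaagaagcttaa
In Gadd45g the 3 E-boxes began 163, 125 and 76 bases before the start. The first of them reads CACGTG. The last is CAGCTG, which is also the single match of Hes6, at 162 bases before its start, and is found in 12% of all windows. The single match of Dll1 lies 66 bases before its start, and on the other strand it reads CAGATG, which 14% of all windows hold on either strand. The windows of Eomes, Neurog2, Neurog1 and Btg2 held no CANNTG.

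The files' libraries held between 62740631 and 80974234 UMIs. Members had a median of 9896, 8063 and 8890.5 UMIs in label order, and a median of 6.36%, 5.19% and 4.98% of UMIs from mitochondrial genes. Kept barcodes shared between any 2 libraries numbered 8 or 9, and no member barcode was a member in another library. Because members were chosen by their own counts, all comparisons with other cells are descriptions. Levels are UMIs of a gene summed over the members of a library, per 1000000 of their UMIs (CPM), and log2 ratios have 1 CPM added to both sides. Shares of cells with a UMI are after thinning each cell to 5000 UMIs, which left out 4, 2 and 5 shallower members. Counts of cells given beside the UMI total of a single gene are unthinned.

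The label of the cells was checked against 6 markers: Eomes, Neurog2, Neurog1, Gadd45g, Btg2 and Mfap4. Eomes was fixed by the rule, and the other 5 were higher in members than in the other kept cells of the same library in each of the 3 libraries. The log2 ratio was 3.85, 1.69 and 2.26 for Neurog2, 3.18, 2.30 and 2.28 for Gadd45g, and 2.27, 2.59 and 1.25 for Mfap4. Of the genes with at least 50 CPM, Neurog2 had the rank 2 of 3447 by that ratio in the library labelled E14, 94 of 3169 in that labelled E16 and 3 of 3269 in that labelled E18. The E16 members thus had the marker of proneural commitment at a lower rank than the members of both other libraries.

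Eomes itself, on which the cells were chosen, had a median of 13, 6 and 9 UMIs per member, with a highest value of 49, 23 and 34. At the limit of the Eomes rule, members with exactly 3 UMIs numbered 10, 25 and 23 and had Neurog2 at 499, 390 and 673 CPM. The cells just outside, with 2 UMIs, numbered 8, 29 and 28 and had it at 324, 260 and 457 CPM. At the Neurod limit, 34, 13 and 36 members had exactly 4 UMIs of Neurod2 and Neurod6, and Neurod1 stood at 277, 820 and 444 CPM in them. The 34, 18 and 49 cells with 5 UMIs had Neurod1 at 488, 849 and 849 CPM. The mitotic limit lies between 0 and 1 UMI, so that every member is at its edge: 32, 45 and 88 cells had exactly 1 UMI of the 3 mitotic genes, and their Neurog2 level of 1018, 278 and 743 CPM was below that of members in each library. Reln, the Cajal-Retzius glycoprotein, which the rule limits, was at 0 UMIs in 138 of 140, 90 of 121 and 253 of 262 members. In the E16 library 31 members held it, and over all 121 members it stood at 56.6 CPM against 38.3 CPM in the other kept cells.

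Members made up 3.15% of kept cells labelled E14 (Clopper-Pearson interval 2.66 to 3.71), 2.33% of those labelled E16 (1.94 to 2.78) and 4.60% of those labelled E18 (4.07 to 5.18). These were set against 2 neighbouring kinds of Eomes cells. Mitotic Eomes cells met the same rule but had at least 1 UMI of Top2a, Mki67 or Cenpf, and numbered 82, 371 and 311. Neurod Eomes cells, which also had none of the 3 mitotic genes, exceeded 4 UMIs of Neurod2 and Neurod6 and numbered 344, 124 and 504.

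Of the Eomes cells of all 3 kinds, members were 24.7% (21.2 to 28.5), 19.6% (16.6 to 23.0) and 24.3% (21.8 to 27.0). With 6 more mitotic genes required at 0 UMIs they were 23.9%, 11.8% and 20.7%. With the rule on 5000 UMIs per cell they were 27.6%, 27.4% and 27.5%, without a lower E16 share. Depth and the limits of the rule changed together there. The other 2 kinds varied more under the 3-gene rule. Mitotic Eomes cells were 14.5%, 60.2% and 28.9%, and Neurod Eomes cells were 60.8%, 20.1% and 46.8%. There were 1.71 members per mitotic Eomes cell (1.29 to 2.27) among E14 cells, 0.326 (0.263 to 0.401) among E16 cells and 0.842 (0.712 to 0.996) among E18 cells. Depth moved with this split: mitotic Eomes cells had a median of 12879.5, 12209 and 11999 UMIs, above the members in each library. When the rule was applied to 5000 UMIs per cell, with limits scaled down, there were 0.533 members per mitotic Eomes cell among E16 cells and 1.10 among E18 cells. With the 6 further mitotic genes at 0 UMIs the ratios were 1.13, 0.160 and 0.516 in label order.

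**Figure D1:**
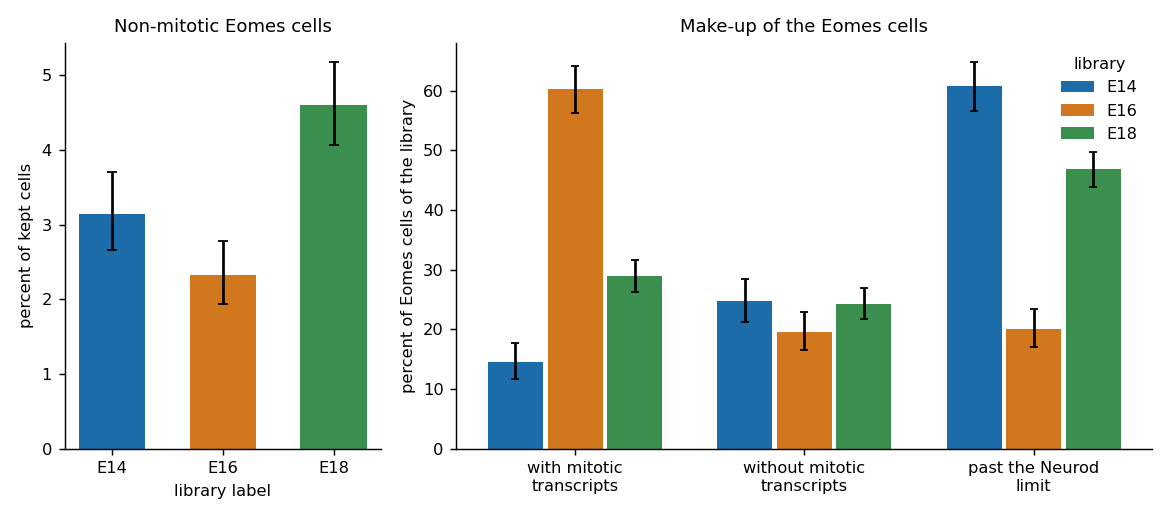
Left, members as percent of kept cells of each library. Right, percent of a library's Eomes cells with a UMI of Top2a, Mki67 or Cenpf, with none of these 3 (the members), or past the Neurod limit. Bars are shares and whiskers exact 95% binomial intervals: the members' share of Eomes cells lies between 19.6% and 24.7% in the 3 libraries, while the mitotic share runs from 14.5% to 60.2%.

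Intermediate progenitor genes are described first. Of 12 genes of the list with enough transcripts, 9 were higher in members than in Neurod Eomes cells in all 3 libraries, beside 24.6% of all genes tested. Among them were Neurog2, Neurog1, Insm1, Gadd45g, Btg2, Hes6, Rhbdl3 and Mfng, and the list's median log2 ratio was 0.73, 1.48 and 0.66, where the median of all genes was within 0.04 of 0. Against mitotic Eomes cells, 5 of the 12 were higher in all 3 libraries (Btg2, Mfap4, Sstr2, Neurod4 and Mfng), beside 21.6% of all genes. The median there was 0.50, 0.06 and 0.58. In the library labelled E16, 6 of the 12 were higher and 6 lower. There 3 were at least 2-fold higher, beside 5.19% of all genes, none was at least 2-fold lower, beside 7.51%, and the median was -0.33 with the rule on 5000 UMIs per cell.

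Neurog2, the proneural factor that commits progenitors to the excitatory lineage, stood in members at 1369 CPM (1308 to 1432), 408 (370 to 449) and 786 CPM (752 to 821). In Neurod Eomes cells it was at 521, 81.9 and 336 CPM. The members were thus above the more advanced Eomes cells in every library, and the E16 members were below the members of both other libraries. At 5000 UMIs per cell, 90.4%, 66.4% and 90.7% of members had a Neurog2 UMI (89.3%, 71.1% and 94.7% unthinned). Among blood vessel, microglial and meningeal cells, which should lack the gene, the thinned share was 3.85%, 5.00% and 0% of 26, 140 and 63 cells. Those cells had medians of 18589, 13270.5 and 17253.5 UMIs before thinning.

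Insm1, a zinc-finger factor that promotes the birth of basal progenitors, showed the same order of libraries, with 518 CPM (481 to 558), 97.9 (79.8 to 119) and 269 CPM (249 to 290) in members. Gadd45g, the growth arrest gene with 3 E-boxes in its window above, did not: it stood at 866, 988 and 1486 CPM in members against 361, 470 and 692 CPM in Neurod Eomes cells. Hes6, which opposes Hes1 and Hes5, had 1600, 1420 and 1690 CPM in members and 1034, 588 and 1088 CPM in Neurod Eomes cells. Both were higher in members in each library. Mitotic Eomes cells had 728, 1174 and 930 CPM of Gadd45g, so that the E16 members were below their mitotic neighbours and the members of both other libraries above.

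Mfap4, a microfibril-associated protein, went the other way along the path to neurons. It stood at 815, 295 and 505 CPM in mitotic Eomes cells, 1510, 679 and 1000.1 CPM in members and 2077, 845 and 1682 CPM in Neurod Eomes cells. Btg2, an antiproliferative gene of progenitors that will make neurons, was highest in the members of all 3 libraries, at 797, 561 and 539 CPM against 563, 492 and 406 CPM in mitotic Eomes cells and 453, 245 and 369 CPM in Neurod Eomes cells. Sstr2, a somatostatin receptor, was at 98.3, 60.5 and 41.5 CPM in members and at 27.6, 24.7 and 21.2 CPM in mitotic Eomes cells. Neurog1, listed among the markers, stayed low at 39.0, 34.6 and 40.4 CPM and differed little between libraries.

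**Figure D2:**
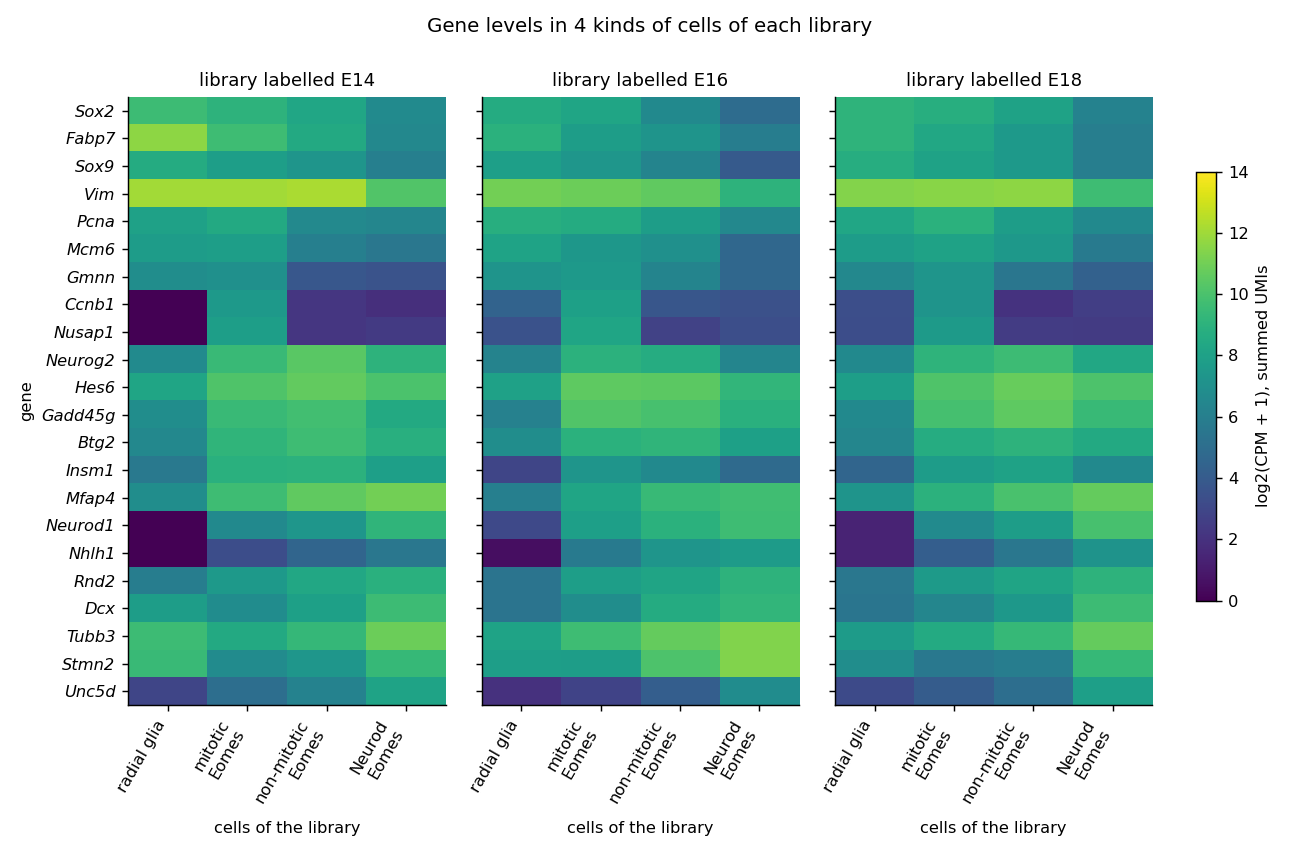
Levels of 22 genes as log2(CPM + 1) of UMIs summed over radial glia, mitotic Eomes cells, the non-mitotic Eomes cells described here and Neurod Eomes cells of each library. From the mitotic to the Neurod column, Sox2, Fabp7 and Sox9 are lower and Neurod1, Nhlh1, Dcx, Tubb3 and Stmn2 higher at each step, and Btg2 is highest in the non-mitotic Eomes column of every library.

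Notch pathway genes went both ways between members and mitotic Eomes cells, with medians of -0.45, -0.28 and -0.03, the first of which was 0.05 at a minimum of 20 CPM. At least 2-fold lower were 4 of 15, 4 of 15 and 2 of 14, beside 7.81%, 7.51% and 5.15% of all genes. Of 13 genes with enough transcripts, 4 were higher in all 3 libraries, beside 21.6% of all genes, and 7 were lower, beside 30.3%. The 4 were the ligand Dll3, the Notch antagonists Numb and Numbl, and Rbpj, the DNA-binding mediator of Notch signals. The 7 were the receptors Notch1, Notch2 and Notch3, the effectors Hes1, Hes5 and Hey1, and Mib1, the ligase that activates Notch ligands. Notch1 stood at 234, 72.9 and 250 CPM in members, 318, 188 and 272 CPM in mitotic Eomes cells and 81.1, 9.39 and 50.1 CPM in Neurod Eomes cells, so that members lay between them. Hes1 stood at 6.51, 19.2 and 28.6 CPM in members against 26.8, 34.2 and 58.8 CPM in mitotic Eomes cells. Dll1, the ligand whose window is shown above, was at 73.0, 83.5 and 78.7 CPM in members and at 17.5, 57.2 and 32.8 CPM in Neurod Eomes cells.

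DNA replication genes were present in members, though at a lower level than in mitotic Eomes cells. All 32 genes of the list were lower in members in all 3 libraries, where 30.3% of all genes were. At least 2-fold lower were 30, 11 and 20 of the 32, beside 7.81%, 7.51% and 5.15% of all genes, and the median log2 ratio was -1.89, -0.79 and -1.17. These genes go with the mitotic genes of the rule, so that the direction is partly set by it. Neurod Eomes cells are the fairer comparison here, since they too have no UMI of the 3 mitotic genes. Against them, 25 of 30 replication genes were higher in members in all 3 libraries and none was lower in all 3, beside 24.6% and 28.5% of all genes. At least 2-fold higher were 4 of 30, 27 of 32 and 19 of 31, beside 4.39%, 7.4% and 5.1% of all genes, with medians of 0.36, 1.66 and 1.17.

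Summed over the 32 genes, members had 1089, 2364 and 2381 CPM, mitotic Eomes cells 3833, 4302 and 4932 CPM, and Neurod Eomes cells 871, 872 and 1067 CPM. The E14 members were close to the Neurod Eomes cells of their library, and the E16 and E18 members lay well above theirs. Pcna, the sliding clamp of the replication fork, stood at 94.0 CPM (78.5 to 112), 225 (197 to 255) and 220 CPM (202 to 239) in members against 83.8, 92.2 and 99.9 CPM in Neurod Eomes cells. Mcm6, a subunit of the replicative helicase, stood at 65.1, 130.5 and 173 CPM in members against 45.1, 24.7 and 52.1 CPM. Gmnn, which blocks relicensing of origins after S phase has begun, was at 13.0, 77.7 and 44.7 CPM in members and at 130, 187 and 160 CPM in mitotic Eomes cells.

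Per cell, at 5000 UMIs, members had a median of 3.5, 6 and 8 UMIs of replication genes. The lower and upper quartiles were 2 and 6 for E14, 2 and 16 for E16 and 4 and 16 for E18 members. Mitotic Eomes cells had medians of 12, 20 and 21, and Neurod Eomes cells 3 in every library. The E16 and E18 members were therefore spread over a wide range, from cells at the level of Neurod Eomes cells to cells with 54 and 48 UMIs, whereas most E14 members lay at the low end.

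**Figure D3:**
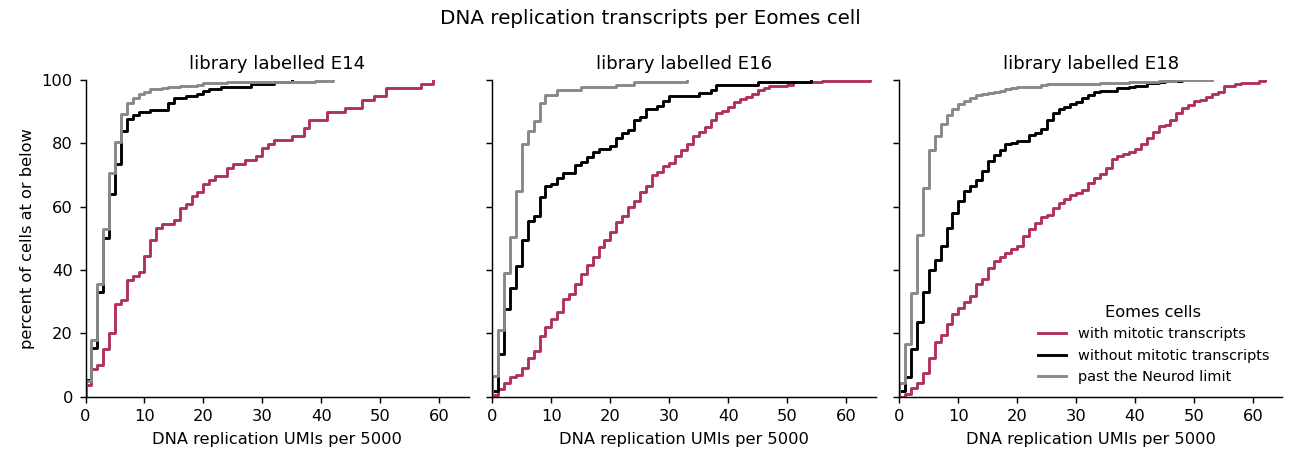
Cumulative percent of Eomes cells by the number of UMIs from 32 DNA replication genes, after thinning each cell to 5000 UMIs, for the 3 kinds of Eomes cells in each library. The line of the members, without UMIs of the 3 mitotic genes of the rule, nearly follows that of the Neurod Eomes cells in the library labelled E14 (medians 3.5 and 3). It lies between the other lines in those labelled E16 and E18 (medians 6 and 8).

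Mitotic genes outside the rule were low, as the choice of the cells fixes in large part, but not absent. At least 1 UMI of the 28 such genes was found in 97, 97 and 209 members, unthinned. At least 3 were found in 33, 43 and 88, or 23.6%, 35.5% and 33.6%. All 28, cyclin B, kinesin and kinetochore genes among them, were at least 2-fold lower in members than in mitotic Eomes cells in each library, beside 7.81%, 7.51% and 5.15% of all genes. Their summed level was 160, 348 and 228 CPM in members, against 3956, 5254 and 3405 CPM in mitotic Eomes cells and 157, 185 and 209 CPM in Neurod Eomes cells. Ccnb1, the mitotic cyclin, had 5, 13 and 8 UMIs, or 3.62, 12.5 and 3.13 CPM, in members and 190, 249 and 148 CPM in mitotic Eomes cells.

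Of 14 G1 regulators, Cdk4, Cdkn1c and Gadd45a were higher in members than in mitotic Eomes cells in all 3 libraries and 6 were lower in all 3, beside 21.6% and 30.3% of all genes. Cdkn1c, the inhibitor of cyclin-dependent kinases that goes with cell cycle exit, stood at 149 CPM (129 to 171), 582 (536 to 630) and 327 CPM (305 to 350) in members. Mitotic Eomes cells had it at 98.2, 181 and 158 CPM and Neurod Eomes cells at 173, 189 and 397 CPM, so that only in the library labelled E16 were members above both. Ccnd1, the G1 cyclin, stood at 49.2, 218 and 92.5 CPM in members and at 16.6, 5.97 and 11.9 CPM in Neurod Eomes cells. Cdkn1a, another inhibitor, had no UMI in E14 members, which allows up to 2.17 CPM by a floor of 3 UMIs over the group. It had 26 UMIs in 11 E16 members, 11 of them in 1 cell, and 1 UMI in E18 members.

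Of single genes chosen by rule rather than by list, those with the highest log2 ratio of members over mitotic Eomes cells were Selenom, Serpini1, Rprm, Dcx, Neurod2, Cdc42ep3, Ddit4 and Ech1. At least 2-fold higher in all 3 libraries were 0.109% of 2764 genes of at least 50 CPM, and 3.91% were at least 2-fold lower. Serpini1, the neuronal serpin, stood at 73.0, 147 and 88.5 CPM in members against 30.9, 57.7 and 34.8 CPM. Rprm, a gene of G2 arrest, stood at 141, 158 and 168 CPM against 60.1, 68.9 and 74.2 CPM. Selenom, a selenoprotein of the endoplasmic reticulum, stood at 91.1, 119 and 58.8 CPM against 45.5, 11.4 and 15.9 CPM, with 30 of its 124 UMIs in the E16 members held by 1 cell.

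Radial glia genes placed the members between mitotic and Neurod Eomes cells, an order that the mitotic and Neurod limits of the rule partly set. Of 15 genes, 13 were lower in members than in mitotic Eomes cells in all 3 libraries, beside 30.3% of all genes, with medians of -0.56, -0.73 and -0.45. All 14 with enough transcripts were higher than in Neurod Eomes cells in all 3 libraries, beside 24.6% of all genes, with medians of 1.95, 1.56 and 1.93. Sox2, a factor of neural stem cells, stood at 307 CPM (278 to 337), 97.9 (79.8 to 119) and 270 CPM (250 to 290) in members. It was at 522, 300 and 434 CPM in mitotic Eomes cells and at 103, 29.9 and 72.6 CPM in Neurod Eomes cells. Vim, the intermediate filament of radial fibres, stood at 4782, 1518 and 3169 CPM in members and at 1181, 521 and 806 CPM in Neurod Eomes cells.

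Among single genes of at least 50 CPM, 1.04% of 2680 were at least 2-fold higher in members than in Neurod Eomes cells in all 3 libraries and 1.34% at least 2-fold lower. Lpar1, the lysophosphatidic acid receptor of the ventricular zone, led the higher ones with 159, 82.5 and 196 CPM against 15.7, 11.9 and 22.7 CPM. Nes, Notch1, Tox3, Ptn, Id4, Vim and Mcm6 followed. Beside Neurod6, which the rule limits, the genes lowest in members were Chga, Unc5d, Bhlhe22, Runx1t1, Ppfia2, Nell2 and Cdh8. Unc5d, a netrin receptor of multipolar cells, stood at 73.8, 17.3 and 32.5 CPM against 278, 112 and 239 CPM.

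Newborn neuron genes were present in members at an intermediate level as well, which the same limits of the rule partly set. Of 18 genes with enough transcripts in every library, 14 were higher than in mitotic Eomes cells in all 3 libraries, beside 21.6% of all genes, with medians of 0.75, 1.32 and 0.49. At least 2-fold higher were 6 of 19, 13 of 19 and 5 of 18, beside 3.16%, 5.19% and 0.849% of all genes. Of 19, 17 were lower than in Neurod Eomes cells in all 3 libraries, beside 28.5% of all genes, with medians of -1.51, -0.70 and -1.84. At least 2-fold lower were 13, 6 and 15 of the 19, beside 6.23%, 5.99% and 6.75% of all genes. Neurod1, the factor that starts neuronal differentiation, stood at 166 CPM (145 to 189), 500.0 (458 to 545) and 218 CPM (200.1 to 237) in members. It was at 98.2, 243 and 101 CPM in mitotic Eomes cells and at 580, 800 and 971 CPM in Neurod Eomes cells. The order from mitotic to member to Neurod Eomes cells thus held in every library, and the E16 members stood nearest to their neuronal neighbours.

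Genes of multipolar migration, the phase in which young neurons leave the subventricular zone, with enough transcripts in every library were lower than in Neurod Eomes cells in all 3 for 14 of 14, beside 28.5% of all genes. The Neurod limit partly sets this direction too. Rnd2, a small GTP-binding protein under Neurog2 control, stood at 336, 286 and 289 CPM in members, against 470, 531 and 528 CPM in Neurod Eomes cells and 185, 227 and 193 CPM in mitotic Eomes cells. Cxcl12, the chemokine, stood at 47.0, 10.6 and 21.1 CPM in members and 188, 14.5 and 114 CPM in Neurod Eomes cells.

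Radial glia without UMIs of the 3 mitotic genes of the rule (no Eomes UMI, at least 5 UMIs of Sox2, Pax6 and Hes5 together) numbered 31, 186 and 180 and were a poorer reference. They held 6.72, 2298 and 34090 CPM of choroid plexus genes and 457, 103 and 49.9 CPM of GABAergic genes, where members had 0.723, 33.6 and 38.4 CPM and 9.40, 3.84 and 1.17 CPM. Against them, all 12 intermediate progenitor genes were higher in members in all 3 libraries, beside 20.9% of all genes, with medians of 3.45, 2.69 and 2.83. At least 2-fold higher were 11, 10 and 12 of the 12, beside 10.1%, 7.42% and 4.02% of all genes. Of 15 radial glia genes, among them Sox2 and Pax6 by which those cells were chosen, 10, 11 and 5 were at least 2-fold lower in members, beside 13.8%, 9.89% and 11.7%. Genes of at least 50 CPM that were at least 2-fold higher in all 3 libraries came to 2.71% of 2733, and 0.878% were at least 2-fold lower. Beside genes the rule used, the highest ratios were those of Neurod1, Nrn1, Plcxd2, Lzts1 and Selenom and the lowest those of Id3, Maf, Fgfbp3, Zic5, C1qtnf4, Arl4a, Sparc and Psat1. Lzts1, a gene of cells that detach from the ventricular surface, stood at 110, 107 and 103 CPM in members against 0, 7.41 and 5.45 CPM. Id3, an inhibitor of proneural factors, stood at 3.62, 3.84 and 1.57 CPM against 141, 139 and 77.6 CPM. Without radial glia that held choroid plexus or GABAergic transcripts, the median log2 ratio of Maf turned to 1.58, an alternative chosen after the data had been seen.

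Between libraries, the E16 members stood apart from both others. The 3 pairwise comparisons share libraries, so that a value particular to the E16 members shows in 2 of them. Among genes of at least 50 CPM, 4.93% of 3284 were at least 2-fold higher and 6.18% at least 2-fold lower in E16 than in E14 members. The corresponding shares were 2.91% and 4.19% of 3125 for E18 over E16, and 1.19% and 1.6% of 3193 for E18 over E14. The members labelled E14 and E18 thus differed at fewer genes than either did from those labelled E16.

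Genes of early cortical progenitors were higher and those of late progenitors lower in the E16 members. Of 6 early genes with enough transcripts, 3 were at least 2-fold higher in E16 than in E14 members, beside 7.67% of all genes, with a median log2 ratio of 1.38. Of 10 late genes, 6 were at least 2-fold lower, beside 9.26%, with a median of -1.78, which was -1.01 at a minimum of 20 CPM. Slc1a2, a glutamate transporter, went the other way, with 6.51, 59.5 and 15.7 CPM. From E16 to E18 members the early list had a median of -1.09, which was -0.43 at a minimum of 20 CPM, and the late list of 0.75. For E18 over E14 the medians were 1.26, with 3 of 5 early genes at least 2-fold higher beside 2.51% of all genes and 1 of 5 at least 2-fold lower beside 4.33%, and -0.62 for the late list. Crabp2, a retinoic acid carrier, stood at 10.1, 279 and 83.1 CPM. Hmga2, a chromatin protein of young stem cells, stood at 1.45, 48.0 and 2.74 CPM. After thinning, a Hmga2 UMI was found in 0.735%, 16.8% and 1.17% of members. In blood vessel, microglial and meningeal cells the share was 0%, 33.6% and 7.94%. For Crabp2 the shares were 5.15%, 66.4% and 28.8% of members and 0%, 40.7% and 34.9% of those other cells. Hmga2 was thus not particular to Eomes cells in the library labelled E16.

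Nfix, which marks the later phases of cortical neurogenesis, stood at 411 CPM (378 to 446), 107 (87.6 to 128) and 273 CPM (253 to 294). Zbtb20, a factor of late progenitors, stood at 522, 118 and 263 CPM, and Aldoc, a glycolytic enzyme of the astrocyte lineage, at 545, 24.0 and 224 CPM. All 3 were lowest in the E16 members and highest in the E14 members. Over the lists, the E16 members had the highest level of the 3 libraries for 5 of 6 early genes, beside 33% of all 9684 genes of at least 5 CPM, and the lowest for 9 of 10 late genes, beside 41.2%.

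Neuronal genes separated the E16 members too. Of 19 newborn neuron genes, 8 were at least 2-fold higher than in E14 members, beside 7.67% of all genes, with a median of 0.72. From E16 to E18, 12 of 19 were at least 2-fold lower, beside 6.62%, with a median of -1.20. Nhlh2, a helix-loop-helix factor of early neurons, stood at 12.3 CPM (7.16 to 19.7), 247 (217 to 279) and 28.6 CPM (22.4 to 36.0). Stmn2, a microtubule protein of growing axons, stood at 160, 1083 and 61.1 CPM. Tbr1, the T-box factor that follows Eomes and marks the deepest layers, stood at 52.8 CPM (41.4 to 66.4), 277 (246 to 311) and 38.4 CPM (31.2 to 46.8), and Bcl11b, a factor of deep layer projection neurons, at 34.7, 305 and 67.8 CPM. Each was higher in the E16 members than in the members of both other libraries. Over the deep layer list, 3 of 8 genes were at least 2-fold higher in E16 than in E14 members, beside 7.67%, and 1 of 8 at least 2-fold lower, beside 9.26%. The median of 0.55 was -0.09 with no minimum.

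Upper layer genes took the other direction, with 4 of 10 at least 2-fold lower in E16 than in E14 members, beside 9.26%, and a median of -0.66. For E18 over E14 the median was -0.56, with 2 of 10 at least 2-fold lower beside 4.33%, and for E18 over E16 it was 0.25. The level was highest in the E14 members for 8 of the 10. Pou3f2, a POU factor of upper layer fate, stood at 265, 75.8 and 129 CPM. Radial glia genes were also lower in the E16 members, with 10 of 15 at least 2-fold lower than in E14 members and a median of -1.38. From E16 to E18 members, 8 of 14 were at least 2-fold higher, beside 4.61% of all genes. The E14 and E18 members were closer to each other here, with a median of -0.19 for E18 over E14 and 1 of 15 at least 2-fold lower, beside 4.33%.

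Replication genes had another order, lowest in the E14 members. At least 2-fold higher than in E14 members were 22 of 32 in the E16 members, beside 7.67% of all genes, and 19 of 31 in the E18 members, beside 2.51%. The medians were 1.18 and 1.09, and -0.23 for E18 over E16. Mcm2, a helicase subunit and 1 of the 5 genes with the highest ratio of E18 over E14, stood at 22.4 CPM (15.2 to 31.8), 63.3 (49.0 to 80.6) and 86.6 CPM (75.5 to 98.8). The E14 members thus paired high Neurog2 and radial glia genes with low replication genes.

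The genes with the highest ratio of E16 over E14 members were Tp73, Nkd1, Zic4, Plk4 and Lhx9. Tp73, a p53 family factor of Cajal-Retzius cells, had no UMI in E14 members and 121 UMIs in 18 E16 members, which makes its level at least 53.5-fold higher (against 3 UMIs over the group). Lhx9, a LIM factor of early cortical neurons, stood at 3.62, 170 and 17.6 CPM and was found in 52 of the E16 members. Zic4 stood at 0.723, 78.7 and 6.27 CPM. Plk4, a kinase of centriole duplication, stood at 1.45, 90.2 and 9.01 CPM and was found in 38 E16 members.

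The genes with the lowest ratio of E16 over E14 members were Acot1, Ccl5, Plppr1, Aldoc and Efl1. Acot1, a thioesterase of fatty acyl-CoA, had 111 UMIs in 53 E14 members and none in E16 members, at least 27.9-fold lower by the same floor, and stood at 14.1 CPM in E18 members. Plppr1, a phospholipid phosphatase-related protein of neurites, stood at 203, 7.68 and 106 CPM, and Efl1, a GTPase of ribosome assembly, at 594, 28.8 and 334 CPM. Ccl5, a chemokine of immune cells, had all of its 97 UMIs in 1 E14 member.

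For E18 over E14 the highest ratios were those of Crabp2, Ptgr1, Lef1, Csrp2 and Mcm2 and the lowest those of Ccl5, Acaa2, Acot1, Acadl and Npy. Lef1, a transcription factor of the Wnt pathway, stood at 23.1, 156 and 101 CPM, and Csrp2, a LIM domain protein, at 140, 1016 and 548 CPM. Acaa2 and Acadl, enzymes of mitochondrial fatty acid oxidation, stood at 184, 15.4 and 24.3 CPM and at 56.4, 3.84 and 10.2 CPM. For E18 over E16 the highest were Plppr1, Efl1, Aldoc, Mfge8 and Col2a1 and the lowest Tp73, Ina, Ebf1, Sez6l2 and Rspo3. Ina, the neuronal intermediate filament internexin, stood at 21.0, 324 and 11.4 CPM, and Rspo3, a Wnt agonist of the cortical hem, at 2.17, 80.6 and 3.53 CPM.

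**Figure D4:**
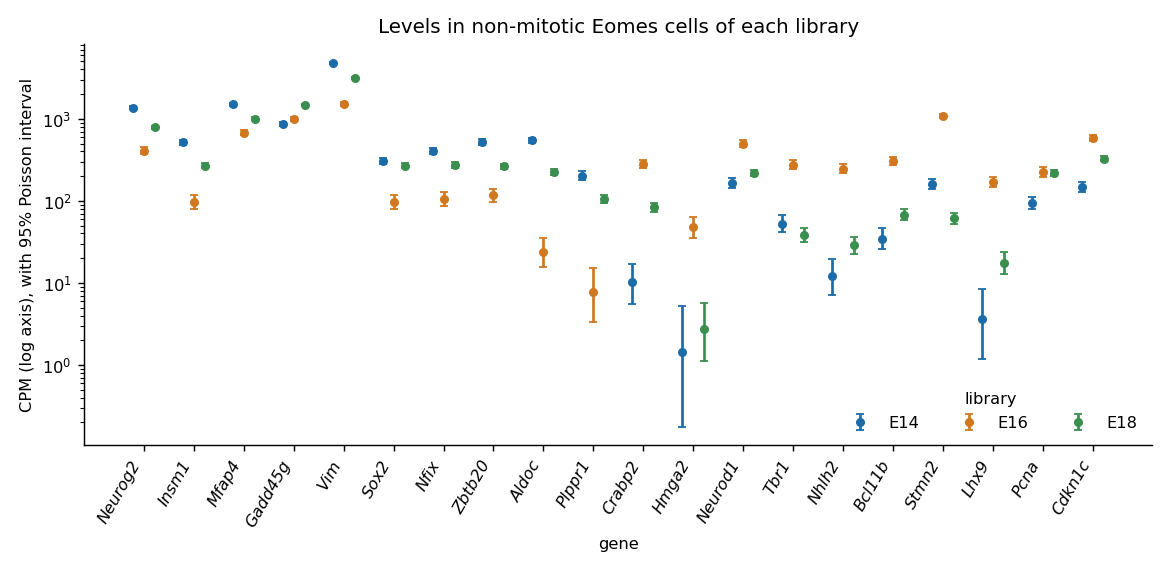
Levels of 20 genes in the non-mitotic Eomes cells of each library, as CPM on a log axis with exact 95% Poisson intervals for counting error. For Nfix, Zbtb20, Aldoc and Plppr1 the E16 point is the lowest, and for Crabp2, Hmga2, Tbr1, Nhlh2, Bcl11b, Stmn2 and Lhx9 it is the highest.

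Transcripts of Cajal-Retzius cells, early marginal zone neurons, were higher in the E16 members. At least 3 UMIs of 5 list genes (Lhx5, Lhx1, Calb2, Ebf3 and Ndnf) were found in 0, 15 and 2 members, which is 12.4% of E16 members (7.11 to 19.6). The summed level was 7.95, 127 and 15.7 CPM, and Lhx5 and Lhx1 were at 0 in E14 members. Mitotic Eomes cells had 4.87, 57.5 and 7.72 CPM and Neurod Eomes cells 6.65, 121 and 8.04 CPM, so that the higher E16 level was not particular to members. The 15 E16 cells had Stmn2 at 2306 CPM and Cdkn1c at 960 CPM, and the other 106 had 897 and 524 CPM. Calb2 was at 284 CPM in the 15 and at 2.21 CPM in the others, Tbr1 at 429 and 254 CPM, and Nhlh2 at 298 and 239 CPM. Without members holding such transcripts, the median for E16 over E14 was 0.62 for newborn neuron, 1.40 for early and -1.74 for late genes, where it was 0.72, 1.38 and -1.78 with them. For newborn neuron genes over mitotic Eomes cells in E16 it was 0.99 without and 1.32 with them. This alternative was chosen after the data had been seen, and Tp73 was not among the genes it counted. The 106 E16 members left in it still had Reln at 46.4 CPM, Ebf3 at 17.7 CPM and Ndnf at 16.6 CPM, so that not all such transcripts were removed. Red cell genes summed to 33.3, 150 and 66.2 CPM in members, and at least 3 of their UMIs were found in 0, 17 and 4 members. They summed to 34.1, 1738 and 1735 CPM in mitotic Eomes cells and to 2064, 148 and 42.2 CPM in Neurod Eomes cells. Choroid plexus genes summed to 1.62, 649 and 43.1 CPM in mitotic Eomes cells and to 0.302, 12.8 and 53.1 CPM in Neurod Eomes cells. The part of these transcripts in the comparisons between kinds of Eomes cells was not tested. Markers of blood vessels, microglia and oligodendrocyte precursors summed to at most 3.62 CPM each in every library's members, and meningeal genes to 0, 6.72 and 6.27 CPM. Dissociation stress genes summed to 453, 531 and 505 CPM in members. For E16 over E14, 3 of 7 were at least 2-fold higher, beside 7.67% of all genes, and none at least 2-fold lower, beside 9.26%. The median was 0.69, and 0.04 with the mean over cells of each cell's CPM.

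Members varied among themselves along Neurod1. At 5000 UMIs per cell, 85 of 136 E14 members, 32 of 119 E16 members and 158 of 257 E18 members had no Neurod1 UMI, while 10, 23 and 18 had at least 5. A Neurod1 UMI was found in 37.5% (29.4 to 46.2), 73.1% (64.2 to 80.8) and 38.5% (32.5 to 44.8) of members. In the vessel, microglial and meningeal cells the share was 15.4%, 2.14% and 6.35%, and unthinned shares were 45.0%, 78.5% and 45.8% in members and 33.3%, 2.08% and 12.1% in those cells. Neurog2 and Neurod1 were found together in 30.1%, 42.9% and 33.9% of members, and Neurod1 without Neurog2 in 7.35%, 30.3% and 4.67%. Sox2 without Neurod1 was found in 46.3%, 12.6% and 40.5%. Most E14 and E18 members thus held Neurog2 but no Neurod1 UMI, and most E16 members held Neurod1.

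Gene lists were then compared between members with and without a Neurod1 UMI of the same library, at equal depth. The newborn neuron list, without Neurod1 itself, was higher in those with a UMI by a log2 ratio of 0.76 (0.67 to 0.84), 1.10 (0.98 to 1.22) and 0.84 (0.78 to 0.91). The DNA replication list differed by -0.23 (-0.46 to 0.00), -1.30 (-1.46 to -1.13) and -0.75 (-0.87 to -0.63). Replication transcripts were thus lower in the Neurod1 members of the libraries labelled E16 and E18, and in that labelled E14 the interval reached 0. The intervals are for UMIs pooled over cells and leave out variation between cells.

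Across bins of 0, 1 to 4 and at least 5 Neurod1 UMIs, radial glia genes of E18 members summed to 7772, 4916 and 2078 CPM. In E14 members they summed to 10139, 5073 and 2360 CPM and in E16 members to 7400.0, 1956 and 1887 CPM. Replication genes summed to 1080.0, 1010 and 560.0 CPM in E14 members, 3681, 1584 and 1261 CPM in E16 members, and 2705, 1783 and 844 CPM in E18 members. Intermediate progenitor genes varied less, and in no common direction, with 7042, 6966 and 5820.0 CPM across the bins of E14 members, 4538, 4594 and 5200.0 CPM across those of E16 members and 5957, 6973 and 5800.0 CPM across those of E18 members. In E14 members the interval at 5 or more UMIs (5171 to 6529) lay below that at 0 UMIs (6792 to 7299). Both are for UMIs pooled over 10 and 85 cells and leave out variation between cells.

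The libraries still differed within a bin. Among members with 1 to 4 Neurod1 UMIs at 5000 UMIs per cell, Stmn2 stood at 259, 1388 and 51.9 CPM, Nhlh2 at 9.76, 291 and 34.6 CPM and Tbr1 at 92.7, 338 and 64.2 CPM. Neurog2 stood at 1029, 328 and 807 CPM in the same cells. For these genes the E16 members differed from the others in this bin too. The summed newborn neuron list was highest in the E16 members in this bin, at 8015, 9203 and 7291 CPM, but not in the other bins. It was at 5000, 4288 and 4330 CPM at 0 UMIs and 10240.0, 9130 and 9889 CPM at 5 or more. There the E16 value was the lowest, with an interval that overlapped that of E18 in both bins.

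**Figure D5:**
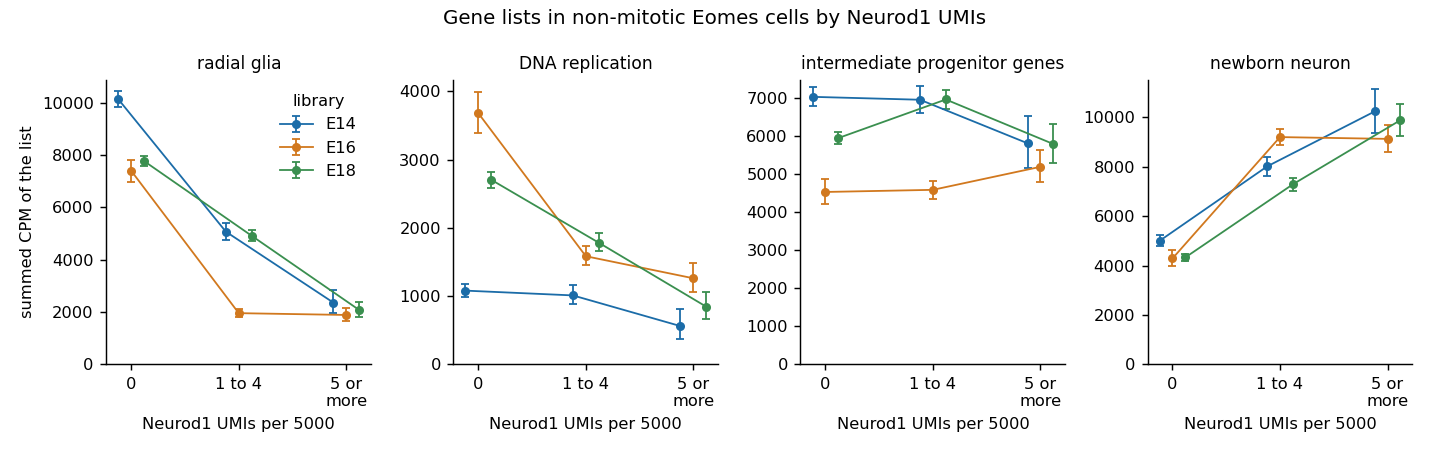
Summed level of gene lists in the non-mitotic Eomes cells of each library by the number of Neurod1 UMIs per cell (0, 1 to 4, and 5 or more, after thinning to 5000 UMIs), as CPM with exact 95% Poisson intervals. Newborn neuron genes are higher and radial glia genes lower in the cells with Neurod1 UMIs in all 3 libraries, and replication genes are lowest at 5 or more UMIs (560.0, 1261 and 844 CPM).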

How the data were processed

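Matrices of UMI counts were deposited by the authors, 1 per library, with 29772 genes. The submitters' processing notes name Cell Ranger 6.0.1 and the build mRatBN7.2, and the role of each is not given in the sources used here. The labels' protocol describes papain dissociation and the 10x 3′ v3.1 chemistry, and also steps for cultured human cells that do not match rat tissue. The cell filter required 1000 or more detected genes and no more than 10% mitochondrial UMIs, and doublets were not removed. The member rule was applied to raw UMIs. UMIs were summed over cells and given as CPM with exact Poisson intervals, and shares with Clopper-Pearson intervals, all at 95%.

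Lists (258 of 260 symbols were found in the files) were summarised over genes of at least 5 CPM on average in the 2 groups. A ratio was called at 2-fold or more. Named single genes were the 5 highest and 5 lowest log2 ratios for each pair of libraries, and the 8 highest and 8 lowest medians for each comparison kind of cell, among genes of at least 50 CPM. Members, lists and limits were chosen with earlier results of these data known. The ratios were tested on simulated data. Computations used SciPy 1.17.1, NumPy 2.4.6 and pandas 2.3.3 under Python 3.11.15, and Scanpy 1.11.5 for doublet scores. Alternatives varied the cell filter, rule, depth, doublets, minimum level and added CPM. Those that left out members with Cajal-Retzius transcripts, or radial glia with choroid plexus or GABAergic transcripts, were chosen after seeing the data. Promoter sequences came from RefSeq GRCr8, another build than that of the notes, and were matched by symbol.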

Additional observations from a re-analysis of the deposited data

Results flagged for a closer look

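The median log2 ratio of late progenitor genes in members over Neurod Eomes cells differed in sign between libraries. It was 1.16 in the library labelled E14, -0.46 in that labelled E16 and -0.39 in that labelled E18. The difference between libraries was not tested, since each label has 1 library. With a minimum of 20 CPM in place of 5 CPM, the value in the library labelled E14 was -0.03. The E14 median was over 11 genes, 6 higher and 5 lower, and the others over 8 genes each. Of 8 genes usable in all 3 libraries, 2 (Hopx and Ptn) were higher in all 3, beside 24.6% of all genes. Another 4 (Nfia, Nfib, Nfix and Slc1a2) were lower in all 3, beside 28.5%.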

How the results depend on the processing

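Of 2281 values recomputed under alternatives for 246 results, 91 took another sign than the main value, and all of these but Maf over radial glia were list medians. Among them were the mitotic list for E16 over E14 (1.62, and -0.58 at a minimum of 20 CPM), the late stage list over Neurod Eomes cells in the library labelled E14 (-0.03 at a minimum of 20 CPM), the deep layer list for E18 over E16 (0.02 with no minimum) and Maf over radial glia (1.58 without radial glia holding choroid plexus or GABAergic transcripts); the causes were not tested. With 6 more mitotic genes required at 0 UMIs, members were 2.66%, 1.31% and 3.43% of kept cells, with 1.13, 0.160 and 0.516 per mitotic Eomes cell. With the rule on 5000 UMIs per cell the shares were 3.83%, 3.06% and 5.57%, with 0.533 and 1.10 members per mitotic Eomes cell in the libraries labelled E16 and E18. With at least 5 Eomes UMIs the shares were 1.62% and 3.78% in those 2 libraries. The late stage list for E16 over E14 was -1.33 with 10 CPM added and -1.01 at a minimum of 20 CPM. With cells thinned to 3000 UMIs, the newborn neuron list differed by 0.77 with Neurod1 in E16 members and the DNA replication list by -0.89 in E18 members. No paired analysis was possible because each label has 1 library. Depth limits low genes: by a floor of 3 UMIs over the group, a count of 0 allows up to 2.17 CPM in E14 members and 2.88 CPM in E16 members. This floor is another bound than the exact Poisson interval given for levels.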
